A study of Mus musculus with 6 samples.

Results

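The data cover 10 genes followed in studies of ageing and cell senescence, read out in mouse kidney: the sirtuins Sirt1, Sirt3, Sirt5 and Sirt6, the forkhead factors Foxo1 and Foxo3, the nuclear lamins Lmnb1 and Lmna, the lysosomal galactosidase Glb1 and the chromatin protein Hmgb1. They were taken by gene symbol from a deposited table of 51804 symbols, all 10 were found, and all 10 had enough counts to be tested among 15017 genes. The table covers RNA-seq of 6 kidney libraries. The genotype is Ccnb1f/f;Cdh16-Cre in 3 (labelled cko, n = 3) and Ccnb1f/f in the others (labelled control, n = 3), so the floxed Ccnb1 alleles are common to all 6. Cdh16 is the kidney-specific cadherin, and its promoter places Cre recombinase in tubular epithelium but not in the vessels, stroma or immune cells of whole kidney. The age, sex and strain of these mice are not stated in the labels, and the extraction text names both kidney and cultured cells. Nothing in the labels says whether a replicate is its own animal. The p-values therefore rest on the spread from library to library, part of which may be technical. The series is about kidney ageing and fibrosis after tubular deletion of cyclin B1, the Cdk1 partner at entry into mitosis.

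Sirtuins are NAD-dependent enzymes that remove acetyl and other acyl groups from proteins. Sirt1 and Sirt6 work in the nucleus, Sirt3 and Sirt5 in mitochondria. Foxo proteins are transcription factors that insulin signalling, through Akt, keeps out of the nucleus, and sirtuins deacetylate them. Lamins form the meshwork under the inner nuclear membrane. Loss of lamin B1, release of Hmgb1 from the nucleus and a rise in lysosomal beta-galactosidase, the product of Glb1, are in common use as marks of senescent cells. The values below are RNA levels, so protein amount, place in the cell and enzyme activity were not measured.

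The libraries held 16061435 to 21261226 estimated counts. Ccnb1 itself had 11 to 18 counts in the libraries labelled cko and 7 to 17 in the controls (log2 fold change 0.34, SE 0.46; edgeR quasi-likelihood test, adjusted p = 0.9995), too few to check the genotype labels, and all directions below are by label. Control 2 stood apart on the first principal component (-52.9, the other 5 between -10.2 and 24.0). On the second (23.7% of the variance, 27.6% on the first) cko 1, 2 and 3 lay at 7.8, 34.2 and 19.4. Control 1, 2 and 3 lay below them at -16.2, -5.2 and -40.0, and this split was not tested. Summed proximal tubule markers reached 18114 to 22860 CPM (the count relative to the library total after TMM scaling) in the 6 libraries, and none of the 10 markers was at 0. Fibroblast and pericyte markers were lower by label in 8 of 8 tested genes (98.3 to 148.5 against 148.4 to 183 CPM, summed) and macrophage markers higher in 9 of 9 (146 to 195 against 128 to 142 CPM). None of these genes passed the edgeR test. All tested intercalated cell (5), erythroid (3), adipose (4) and immediate early and heat shock (6) markers were also lower, and none passed. The part of these marker differences in the values below was not tested. In bulk tissue, fewer cells of a type and less RNA per cell cannot be told apart.

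For none of the 10 genes did the difference between the groups pass the test against the spread of the libraries. The log2 fold changes of cko over control ran from -0.26 for Sirt6 to 0.17 for Sirt5, with 4 genes above 0, 6 below and a median of -0.02, beside a median of -0.01 over all 15017 genes. By the edgeR quasi-likelihood test with Benjamini-Hochberg adjustment 0 of 10 passed an adjusted p under 0.05, where 2 of 15017 genes (0.0133%) did, 1 in each direction (0.00666%). At an unadjusted p under 0.05 the count was also 0 of 10, beside 3.23% of all genes, and DESeq2 called 0 of 10, beside 0.0933% of the genes to which it gave an adjusted p. All 10 adjusted p-values were 0.9995. The 95% confidence intervals show how large a change could have been missed. The narrowest was that of Sirt3 (-0.26 to 0.19 on the log2 scale) and the widest that of Foxo3 (-0.77 to 0.49), so larger changes lay outside the intervals.

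**Figure D1:**
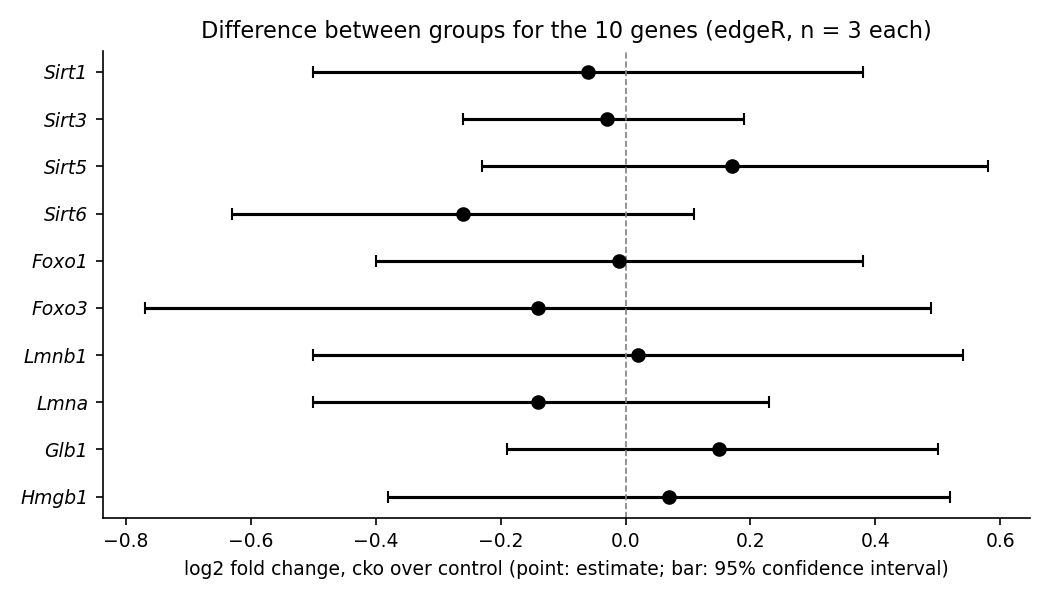
Log2 fold change of libraries labelled cko over control for the 10 genes (horizontal axis), as points with 95% confidence intervals from the edgeR fit (n = 3 each). All 10 intervals include 0, and they run from -0.77 (the lower bound of Foxo3) to 0.58 (the upper bound of Sirt5).

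On the FPKM scale of the deposited table, which divides by transcript length and allows genes to be compared, Glb1 (67.8 to 92.7 FPKM over 6 libraries) and Sirt3 (72.9 to 81.4) were the most abundant. Glb1 stood above Sirt3 in 5 of 6 libraries and their ranges overlapped. Lmna followed at 32.5 to 46.5 FPKM, below Sirt3 without overlap. Hmgb1 (18.9 to 34.7 FPKM) and Foxo3 (13.6 to 34.8 FPKM) overlapped with each other, and Hmgb1 with Lmna. Sirt5 (8.12 to 12.6 FPKM), Foxo1 (5.63 to 9.15), Sirt1 (4.97 to 8.57) and Sirt6 (4.2 to 5.84) came next, each overlapping its neighbour. Lmnb1 was the rarest, at 1.51 to 2.58 FPKM, below Sirt6 in all 6 libraries. Lmna was thus read far above Lmnb1 in every library. The other B-type lamin gene, Lmnb2, is not among the genes ranked here. It read 15.9 to 20.8 CPM over the libraries, where Lmnb1 read 4.35 to 7.20 CPM.

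Sirt1 (chromosome 10, 63319005 to 63381704, GRCm38), the nuclear deacetylase of p53 and Foxo proteins, stood at 24.1, 23.9 and 25.7 CPM in cko 1, 2 and 3 and at 18.9, 25.0 and 33.0 CPM in control 1, 2 and 3. The 3 cko libraries lay close together inside the range of the controls. The means were 24.6 ± 1.00 and 25.6 ± 7.06 CPM (SD, n = 3 each), with a log2 fold change of -0.06 (SE 0.19, 95% interval -0.50 to 0.38). That value was 0.16 without control 3 and -0.24 without control 1, the highest and the lowest library.

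Sirt3 (chromosome 7, 140863666 to 140882309), the main deacetylase of the mitochondrial matrix, was the steadiest of the 10. It stood at 104, 99.5 and 91.7 CPM in cko 1, 2 and 3 and at 106, 100 and 95.6 CPM in the controls, the highest library 1.16 times the lowest. The groups overlapped, and the log2 fold change was -0.03 (SE 0.10). Sirt5 (chromosome 13, 43365496 to 43395203), which removes succinyl, malonyl and glutaryl groups in mitochondria, read 14.95, 15.3 and 10.93 CPM in cko 1, 2 and 3 against 11.8, 13.6 and 11.04 CPM in the controls. Cko 1 and 2 were above all controls and cko 3 was below them, with a log2 fold change of 0.17 (SE 0.18).

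Sirt6 (chromosome 10, 81621785 to 81627797), a chromatin-bound deacetylase of histone H3, was the 1 member whose groups did not overlap in CPM. In the deposited FPKM they did overlap, with control 3 (4.28) inside the cko range (4.2 to 4.34). It read 7.13, 7.57 and 7.01 CPM in cko 1, 2 and 3 and 9.65, 8.41 and 7.94 CPM in the controls, from 120 to 166 counts per library. All 3 cko libraries were below all 3 controls, and the means were 7.24 ± 0.295 and 8.67 ± 0.882 CPM (SD, n = 3 each). Sirt6 had a log2 fold change of -0.26 (SE 0.16, 95% interval -0.63 to 0.11) and did not pass the edgeR test (unadjusted p = 0.14, adjusted p = 0.9995). The two-sided permutation p, from exact enumeration, was 0.1, the smallest that 3 against 3 allows. Groups did not overlap for 8.18% of all genes (4.08% with cko lower), so 1 of 10 is near the background.

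The sirtuins outside the 10 had similar mean levels in both groups. Sirt2, a mainly cytosolic deacetylase, was at 68.1 ± 2.96 against 68.6 ± 7.68 CPM (SD, n = 3 each). The mitochondrial Sirt4 was at 14.9 ± 0.732 against 14.3 ± 2.12 CPM and the nucleolar Sirt7 at 57.4 ± 0.575 against 61.5 ± 5.60 CPM. None of these 3 passed the test (log2 fold changes -0.01, 0.06 and -0.10).

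Foxo1 (chromosome 3, 52268336 to 52353221), which drives gluconeogenic and stress genes when insulin is low, stood at 71.0, 49.4 and 71.2 CPM in cko 1, 2 and 3 and at 58.5, 74.8 and 59.8 CPM in the controls. Cko 2 was the lowest and control 2 the highest library, and the group means were nearly equal at 63.9 ± 12.5 and 64.4 ± 9.02 CPM (SD, n = 3 each), giving a log2 fold change of -0.01 (SE 0.17). Foxo3 (chromosome 10, 42181841 to 42276755), the related factor linked to longevity, varied most among the 10. It read 152, 93.4 and 180 CPM in cko 1, 2 and 3 and 120, 210 and 139 CPM in the controls. The highest library held 2.25 times the level of the lowest, where the median of this ratio was 1.48 over all genes tested. The log2 fold change of -0.14 (SE 0.27) turned to 0.08 without cko 2 and to 0.14 without control 2. Foxo4 was at 46.2 ± 3.87 against 45.7 ± 1.67 CPM (log2 fold change 0.01, SE 0.10), and Foxo6 had at most 4 counts in any library and was not tested.

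Lmnb1 (chromosome 18, 56707813 to 56753424), the B-type lamin whose loss marks senescent cells, read 6.72, 4.35 and 7.20 CPM in cko 1, 2 and 3 and 5.77, 6.03 and 6.31 CPM in the controls. Cko 1 and 3 lay above every control and cko 2 below every control, so the cko libraries spread over 6.09 ± 1.52 CPM and the controls over 6.04 ± 0.271 CPM (SD, n = 3 each). Its log2 fold change was 0.02 (SE 0.23, 95% interval -0.50 to 0.54) and became 0.20 without cko 2 and -0.12 without cko 3. With 69 to 156 counts per library it had the fewest counts of the 10 in every library but cko 3, where Sirt6 had 152.

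Lmna (chromosome 3, 88480147 to 88509956), which codes for lamins A and C, stood at 94.4, 68.7 and 79.9 CPM in cko 1, 2 and 3 and at 103, 74.2 and 89.9 CPM in the controls. The groups overlapped, and the log2 fold change was -0.14 (SE 0.16, 95% interval -0.50 to 0.23). Glb1 (chromosome 9, 114401076 to 114474898) read 223, 221 and 197 CPM in cko 1, 2 and 3 and 224, 153 and 198 CPM in the controls. Control 2 was the lowest by far and the other 5 libraries lay between 197 and 224 CPM, so the log2 fold change of 0.15 (SE 0.15) was 0.02 without control 2. Hmgb1 (chromosome 5, 149046702 to 149184489) read 68.5, 42.8 and 67.4 CPM in cko 1, 2 and 3 and 56.0, 65.8 and 48.5 CPM in the controls, and cko 2 was again the lowest library. Its log2 fold change was 0.07 (SE 0.20) and ran from -0.04 without cko 1 to 0.25 without cko 2. Hmgb1 has processed pseudogenes of near-identical sequence, and the 13 such symbols in the table held 9.11% to 17.9% as many counts as Hmgb1 itself. The level of Hmgb1 is therefore uncertain, by an amount that was not measured.

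**Figure D2:**
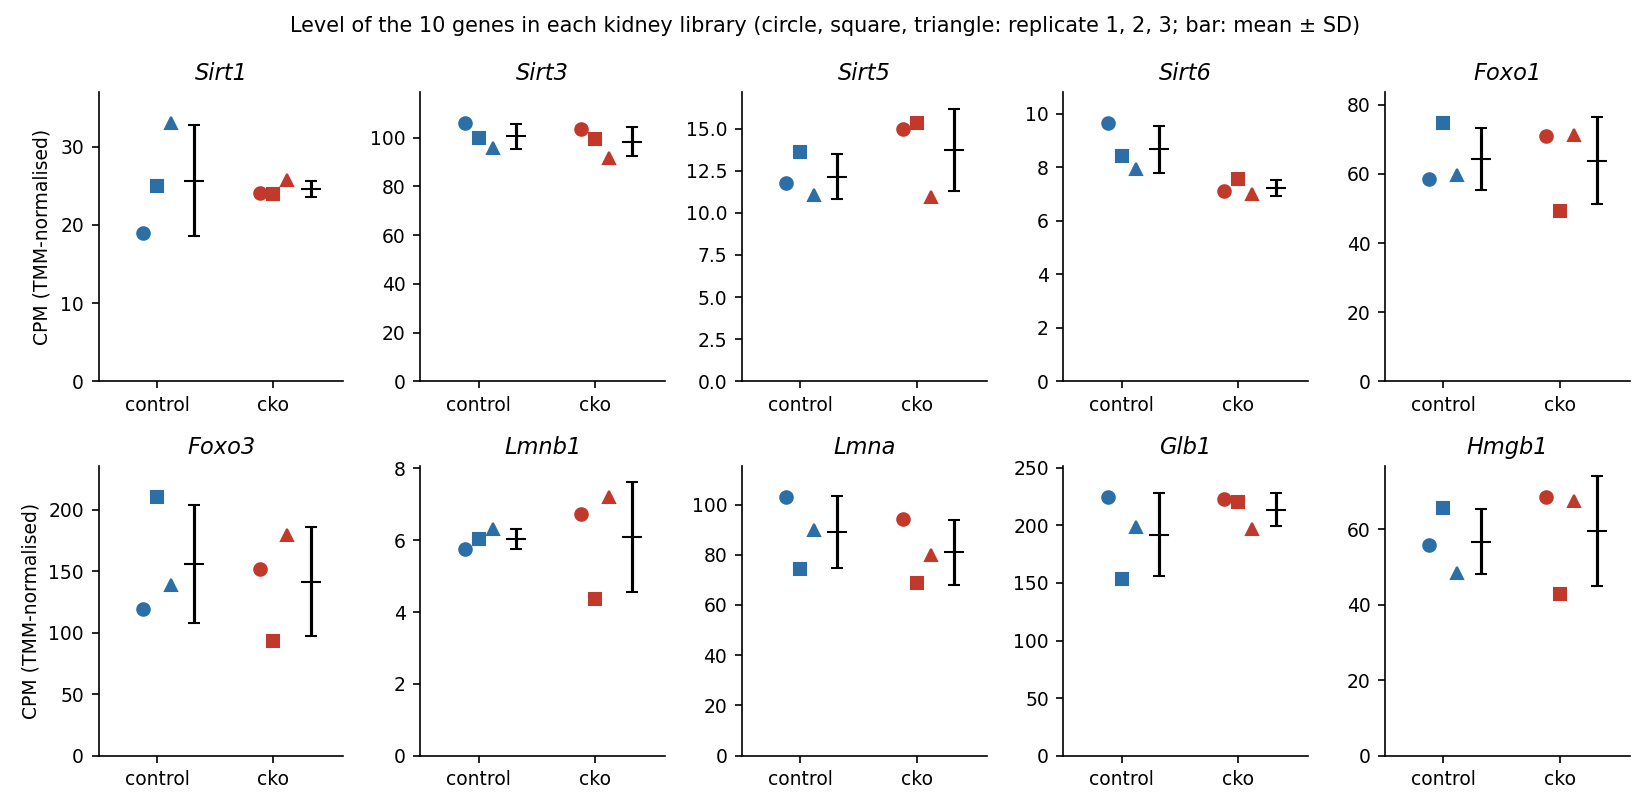
Level of each of the 10 genes in CPM (vertical axes, each from 0) in the 3 control and 3 cko libraries, 1 symbol per replicate number, with the group mean ± SD beside them. In CPM the groups overlap in 9 of 10 panels; in the Sirt6 panel the cko libraries (7.01 to 7.57 CPM) lie below the controls (7.94 to 9.65 CPM).

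The table lists transcripts, so each gene could be divided further, and for Lmna this separates the transcripts that code for its 2 proteins. By the GENCODE M21 annotation (GRCm38), Lmna-201 codes for 665 residues (prelamin A, which is trimmed to lamin A) and Lmna-203 for 574 (lamin C). Their coding sequences are identical over the first 568 codons. The last 36 coding bases of each are shown because the 2 products end differently. In Lmna-201 (minus strand, chr3:88482074-88482354, read across 1 intron) the capitals mark the end that codes for the farnesylation motif and the stop codon. In Lmna-203 (minus strand, chr3:88483297-88483332) they mark the bases after the point of divergence, which hold no such motif.
Lmna-201: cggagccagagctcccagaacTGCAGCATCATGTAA
Lmna-203: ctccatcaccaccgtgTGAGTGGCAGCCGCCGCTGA

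The lamin C transcript held the largest share of Lmna counts in every library, and protein was not measured. Lmna-203 held 64.5%, 62.4% and 68.2% of Lmna counts in cko 1, 2 and 3 and 70.2%, 69.8% and 55.6% in the controls. Lmna-201 held 32.2%, 30.03% and 25.4% against 25.4%, 24.7% and 38.7%. Of the 2 together, the lamin A transcript made up 31.0% ± 3.4 in the libraries labelled cko and 31.2% ± 8.5 in the controls (SD, n = 3 each). Control 3 was the highest and the other 2 controls the lowest, so the control range enclosed the cko range. Neither transcript differed in a test over 32803 transcripts (Lmna-201 log2 fold change -0.14, SE 0.28; Lmna-203 -0.12, SE 0.20; edgeR adjusted p = 0.9999 for both). Zmpste24, the protease that trims prelamin A, was at 155, 161 and 154 CPM in cko 1, 2 and 3 and 139, 143 and 142 CPM in the controls. Those groups did not overlap, yet the difference was small (log2 fold change 0.15, SE 0.09) and did not pass (unadjusted p = 0.126, edgeR adjusted p = 0.9995).

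Of 59 transcripts listed for the 10 genes, 9 had no counts in any library and 34 were tested. In that fit 0 of 34 passed an adjusted p under 0.05, beside 0.0061% of all transcripts tested, and 0 of 34 had an unadjusted p under 0.05, beside 3.19%. DESeq2 also called 0 of 34, beside 0.4%. Single transcripts carried nearly all counts of Foxo1, Foxo3 (Foxo3-203, 97.4% to 99.8%), Glb1 (Glb1-201, 98.3% to 99.3%) and Lmnb1 (Lmnb1-201, 93.9% to 100%). The program that shared counts among transcripts is not named in the labels, so shares within a gene carry an error of assignment that the spread between libraries may not show.

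Sirt3 was read mostly as transcripts for the short protein. Sirt3-202 held 65.2% to 73.2% of its counts and Sirt3-201 4.45% to 8.28%, and both carry the same coding sequence of 257 codons. The longer form of 309 codons (Sirt3-210) had no counts in any library. Sirt3-205 held 13.4% to 20.5%. Its annotated coding sequence is incomplete at its 3′ end and already spans 258 codons, so its counts cannot be assigned to the short protein. In mouse, the short and long Sirt3 proteins are known to differ in the N-terminal stretch that targets the enzyme to mitochondria.

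Sirt1 showed the most uneven division. Its full-length coding transcript Sirt1-201 (737 codons) held 58.3%, 88.7% and 78.5% of Sirt1 counts in cko 1, 2 and 3 and 83.2%, 80.1% and 90.1% in the controls. In cko 1 a further 40.6% fell on Sirt1-205, a transcript annotated as a target of nonsense-mediated decay, which held 6.39% to 10.97% in the other 5 libraries and was picked after its values were seen. The value for cko over control was 1.27 (SE 0.67) on the log2 scale, with an adjusted p of 0.9999 by edgeR. Without cko 1 it was 0.19, so a single library carries it.

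For Hmgb1 and Sirt5 the main transcript took a larger share in every cko library than in any control. Hmgb1-201 held 84.8%, 81.8% and 86.8% of Hmgb1 counts in cko 1, 2 and 3 and 76.7%, 79.9% and 76.8% in the controls. Sirt5-211, the 310-codon form, held 55.8%, 58.1% and 65.4% against 51.8%, 52.6% and 49.2%. For each the exact permutation p (two-sided) was 0.1, which is the minimum for this design. Shares of 4 of 33 tested transcripts in members with several transcripts did not overlap between the groups (12.1%), beside 10.8% of 29556 transcripts over the whole table, so this count is near the background. The other 2 were the minor Sirt3-206 and Sirt3-208, both lower by label and named here after their values were seen.

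**Figure D3:**
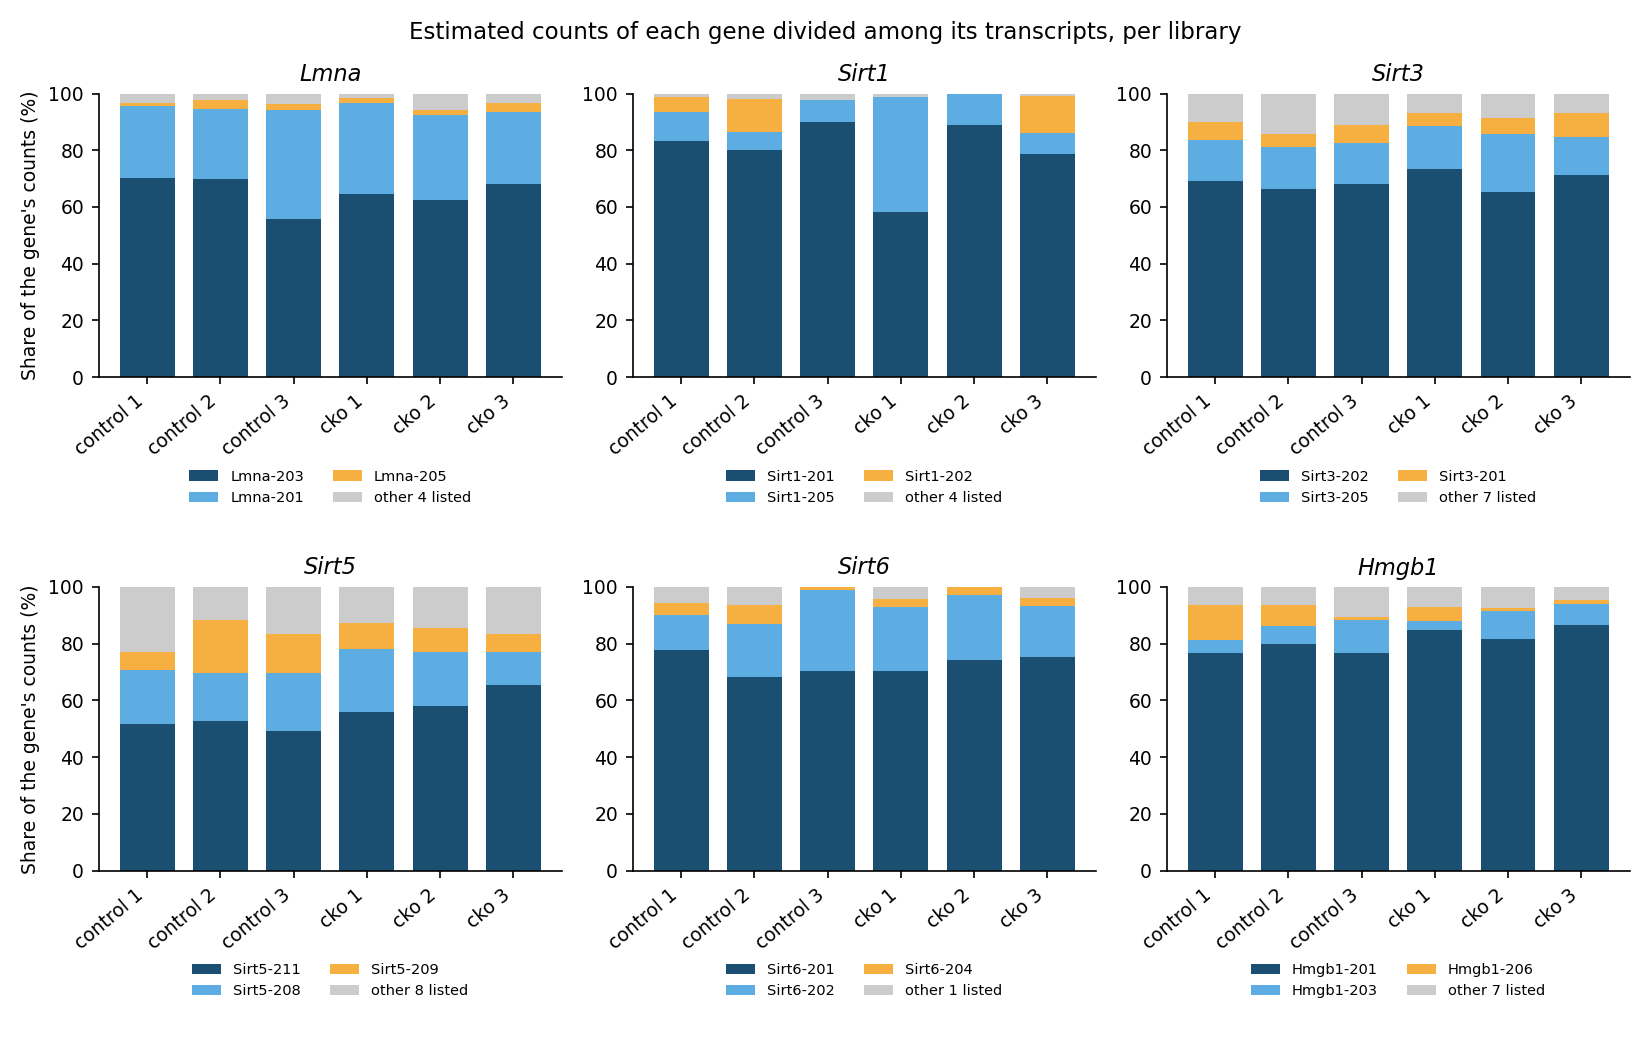
Share of each gene's estimated counts (vertical axis, percent) assigned to its 3 most abundant transcripts and to the remaining listed ones, in each of the 6 libraries, for the 6 members with divided counts. The lamin C transcript (Lmna-203) is the largest share of Lmna throughout, and cko 1 stands out in the Sirt1 panel with 40.6% on Sirt1-205.

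Although no member passed the test between the groups, several members had similar orders of the libraries. Cko 2 held the lowest level of Foxo1, Foxo3, Lmnb1, Lmna and Hmgb1, 5 of 10 members, where 14.6% of all genes had their lowest level in that library. Control 2 held the highest level of Foxo1 and Foxo3, 2 of 10 members, as it did for 23.8% of all genes. Foxo1 and Foxo3 put the 6 libraries in the same order (Pearson r = 0.96, Spearman rho = 1.00, exact permutation p = 0.00139 and 0.00278, n = 6 libraries). Adjusted over the 45 pairs of members these are 0.0625 and 0.125, so the relation fails the correction, and r was 0.88 without cko 2 and control 2. For Foxo1 and Hmgb1 r was 0.94 and rho 0.71 (exact permutation p = 0.0167 and 0.136, adjusted 0.375 and 0.562), with r = 0.90 without the same 2 libraries. With the log2 total of counts, Foxo1, Foxo3, Lmnb1 and Hmgb1 had correlations of 0.66 to 0.77, while Sirt3 (-0.69), Sirt5 (-0.60) and Glb1 (-0.46) had negative ones, and cko 2 was the shallowest library.

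The Foxo levels are given beside markers of collecting duct principal cells. Their summed level was 494, 288 and 422 CPM in cko 1, 2 and 3 and 378, 565 and 400 CPM in the controls, so that cko 2 was lowest and control 2 highest, as for Foxo1 and Foxo3. Aqp2 and Aqp3 make up most of that sum and had the same lowest and highest libraries. The other 3 of the 5 markers did not have cko 2 lowest: Scnn1g (31.1 CPM) and Avpr2 (11.8 CPM) were lowest in control 3, and Fxyd4 was highest in cko 2 (19.4 CPM). Over the 6 libraries the sum had r = 0.94 and rho = 0.94 with Foxo1 (exact permutation p = 0.00278 and 0.0167) and r = 0.91 and rho = 0.94 with Foxo3 (p = 0.0153 and 0.0167, exact permutation). Adjusted over 140 relations of 10 members with 14 marker lists, the lowest of these is 0.194, and without cko 2 and control 2 the r was 0.81 for Foxo1 and 0.53 for Foxo3. For Lmna the proximal tubule sum gave similar values (r = 0.93, rho = 0.83, exact permutation p = 0.0167 and 0.0583, adjusted 0.583 and 0.794; r = 0.99 without cko 2 and control 1). The adipose markers did so too (47.7 to 98.6 CPM summed; r = 0.94, rho = 1.00, exact permutation p = 0.00278 for each, adjusted 0.194 and 0.389; r = 0.94 without the same 2 libraries). Fabp4 made up most of the adipose sum (45.5 to 68.9 CPM). The proximal tubule markers differed among themselves. Slc34a1, Slc5a2, Slc22a6 and Slc13a3 were highest in control 1, as Lmna was, and the other markers in other libraries. Slc5a12 was lowest in cko 1 (274 CPM), and Cubn and Aqp1 were highest in control 2 (706 and 1560 CPM). The part of cell makeup in these levels was not tested.

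**Figure D4:**
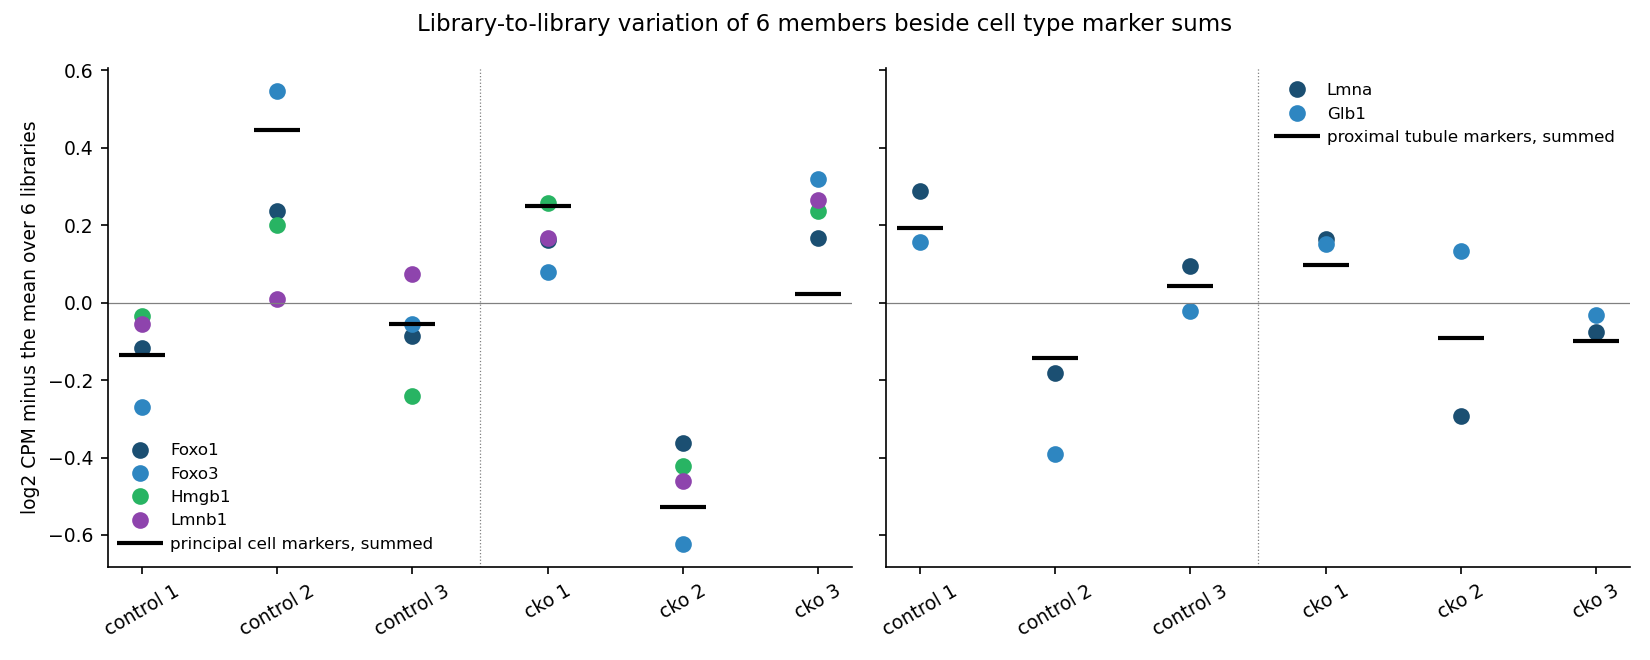
Level of 6 members in each library as log2 CPM minus the mean over 6 libraries (vertical axis), with summed marker levels as black bars: Foxo1, Foxo3, Hmgb1 and Lmnb1 with principal cell markers (left), Lmna and Glb1 with proximal tubule markers (right). Cko 2 is lowest for all 4 genes on the left and for the principal cell sum, and control 2 is highest for Foxo1, Foxo3 and that sum.

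Among 11055 genes with a mean of at least 5 CPM, the gene whose log2 level was most like that of a member over the 6 libraries was the principal cell water channel Aqp3 for Foxo1 (r = 0.986), Cdk18 for Foxo3 (0.989), the proximal tubule transporter Slc13a3 for Lmna (0.997), Slc2a8 for Hmgb1 (0.991) and Rasa3 for Lmnb1 (0.976). For the sirtuins these genes were Atf2 for Sirt1 (r = 0.993), Rpl23a for Sirt3 (0.988) and Erich1 for Sirt6 (0.990), with AC153899.1 for Sirt5 (0.976), and for Glb1 it was Gm13835 (0.998). With 6 points and so many candidates high values are common, and 22 to 430 genes per member exceeded 0.9. Aqp3 and Slc13a3 are each 1 gene of the marker lists named above.

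The stretches before the start sites of Foxo1, Foxo3 and Hmgb1 are shown because the levels of these 3 genes were compared with each other above. They are the last 120 bases up to the RefSeq start (build GRCm38.p6), at chr3:52268217-52268336 on the plus strand, chr10:42276696-42276815 on the minus strand and chr5:149053058-149053177 on the minus strand. Capitals mark matches on either strand to the CCAAT box (CCAAT) or the GC box (GGGCGG).
Foxo1: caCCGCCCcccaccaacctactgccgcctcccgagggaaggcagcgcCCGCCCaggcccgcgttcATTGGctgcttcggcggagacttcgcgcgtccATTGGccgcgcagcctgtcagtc
Foxo3: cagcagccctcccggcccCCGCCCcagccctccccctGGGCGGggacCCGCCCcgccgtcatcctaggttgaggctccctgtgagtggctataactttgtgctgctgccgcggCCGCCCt
Hmgb1: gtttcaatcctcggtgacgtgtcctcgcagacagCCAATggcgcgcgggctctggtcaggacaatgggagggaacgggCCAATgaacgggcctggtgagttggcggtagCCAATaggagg

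Over the full 250 bases before the start, Foxo1 held 3 CCAAT and 2 GC box matches, Foxo3 0 and 5, and this Hmgb1 start 3 and 0. The other Hmgb1 start in RefSeq, not shown, held 0 and 4. The forkhead core GTAAACA and the E-box CACGTG were searched too, on both strands, and none of the 4 motifs contains another. A CCAAT match was present in 33.8% of 32851 promoters of that length, a GC box in 32.7%, an E-box in 6.02% and the forkhead core in 3.17%. RefSeq gave 13 starts for 9 of the 10 genes (all but Lmnb1), of which 5 held CCAAT, 8 a GC box, 3 an E-box and 0 the forkhead core. A match describes letters in the window, not a bound site.

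The genes around the members were read from 10 lists with 197 genes, of which 181 were tested. None passed the edgeR test (0 higher, 0 lower, adjusted p under 0.05), DESeq2 called 0, 2 had an unadjusted p under 0.05, and the median log2 fold change was 0.02. Groups did not overlap for 10 of the 181 (5.52%), beside 8.18% of all genes.

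NAD metabolism, which supplies the sirtuins' co-substrate, had 10 genes above 0 and 9 below (median log2 fold change 0.01). Nampt, the rate-limiting enzyme of NAD salvage, was at 191, 157 and 204 CPM in cko 1, 2 and 3 and 142, 252 and 175 CPM in the controls, with the extremes both among controls (log2 fold change -0.05, SE 0.21). The NAD kinase Nadk was at 274 ± 13.0 against 272 ± 58.7 CPM (SD, n = 3 each). Ido2, a tryptophan-degrading enzyme, was at 17.1 ± 1.56 against 13.7 ± 2.09 CPM, with groups that did not overlap (log2 fold change 0.31, SE 0.16, unadjusted p = 0.0797). Among genes for sirtuin substrates 11 stood above 0 and 6 below (median 0.04). The respiratory chain subunit Sdha was at 0.03 (SE 0.11), the glutamate dehydrogenase Glud1 at 0.10 (SE 0.13) and the acyl-CoA dehydrogenase Acadl at 0.18 (SE 0.14) on the log2 scale.

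Regulators of Foxo proteins split 15 above 0 and 16 below (median log2 fold change -0.001). The 14-3-3 proteins Ywhaz and Ywhae, which hold phosphorylated Foxo in the cytosol, were at 443 ± 13.2 against 396 ± 46.6 CPM and 352 ± 8.21 against 341 ± 21.8 CPM (SD, n = 3 each). For Ywhaz the groups did not overlap, and the log2 fold change of 0.16 (SE 0.12) did not pass the edgeR test. The regulatory PI3-kinase subunit Pik3r1 had the lowest p of that list, with 65.7, 57.8 and 54.3 CPM in cko 1, 2 and 3 and 62.9, 81.0 and 75.8 CPM in the controls. Control 1 lay inside the cko range, and the log2 fold change of -0.31 (SE 0.13) gave an unadjusted p of 0.0438 and an adjusted p of 0.9995 (edgeR). Irs2, the insulin receptor substrate and itself a Foxo target, was picked after its values were seen. It read 294 CPM in control 3 and 30.6 to 74.8 CPM in the other 5 libraries, and control 3 also held 2816 CPM of the immediate early and heat shock markers against 152 to 480 CPM elsewhere.

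Targets of Foxo factors gave 18 genes above 0 and 16 below, with a median log2 fold change of 0.01. Pck1, the gluconeogenic enzyme, was at 3111, 2480 and 3096 CPM in cko 1, 2 and 3 and 2593, 3099 and 2596 CPM in the controls. As for Foxo1, cko 2 was its lowest library, while its highest was cko 1 (log2 fold change 0.07, SE 0.15). The selenium carrier Selenop was at 2345, 2735 and 2245 against 2409, 1099 and 1827 CPM, and its log2 fold change of 0.46 (SE 0.26) was 0.21 without control 2. Bcl6, a transcriptional repressor picked after its values were seen, read 145 CPM in cko 3 and 18.2 to 45.0 CPM in the other libraries (log2 fold change 0.97, SE 0.73).

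**Figure D5:**
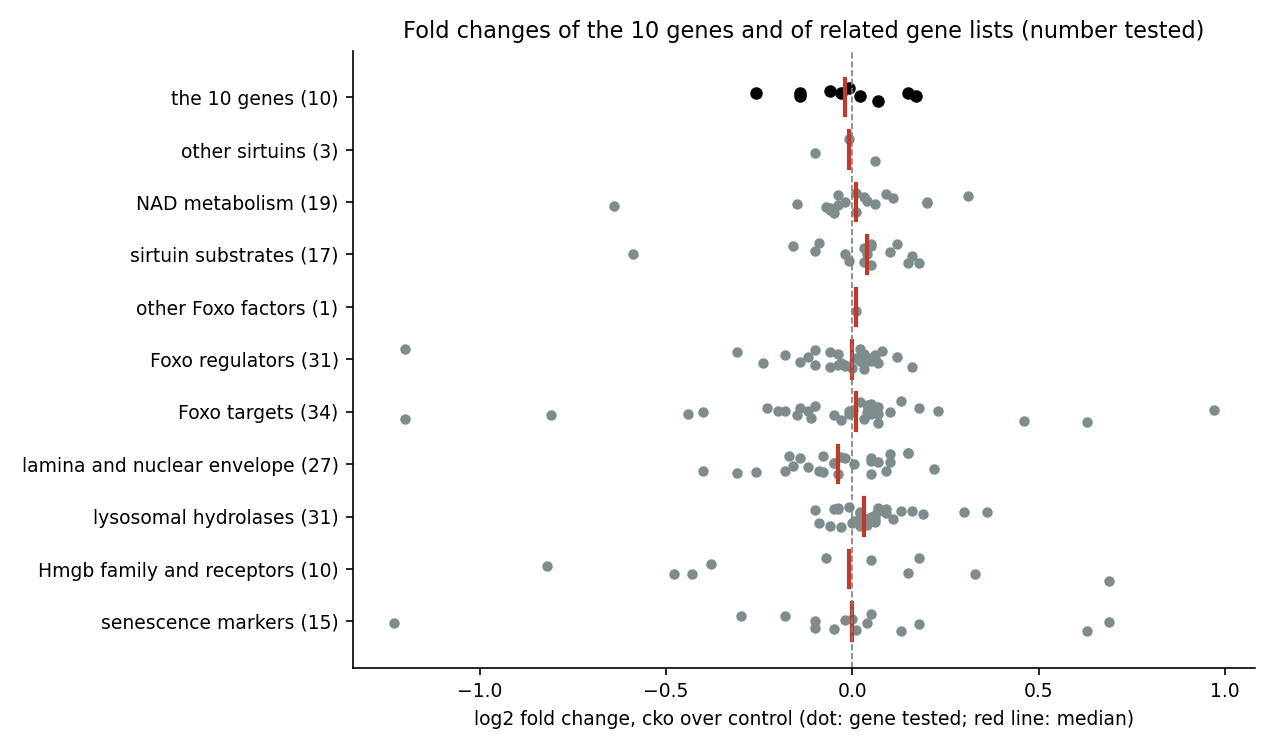
Log2 fold change of cko over control (horizontal axis) for the 10 genes and for the tested genes of 10 related lists, 1 dot per gene, with the list median as a red line. List medians lie between -0.04 and 0.04, and no dot passed the edgeR test.

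The lamina and nuclear envelope list had 11 genes above 0 and 16 below (median log2 fold change -0.04, beside 51% of all genes below 0). Syne1, a spectrin-repeat protein of the outer nuclear membrane, had the lowest p. It read 32.2, 38.4 and 40.1 CPM in cko 1, 2 and 3 and 40.7, 57.6 and 47.8 CPM in the controls, without overlap, and its log2 fold change of -0.40 (SE 0.15; edgeR unadjusted p = 0.029, adjusted p = 0.9995) did not pass. Its relative Syne2 was at 254 ± 36.5 against 285 ± 65.0 CPM (SD, n = 3 each). Of 31 lysosomal genes 22 stood above 0 (median log2 fold change 0.03, range -0.10 to 0.36). Psap, the precursor of the saposins, was at 1927 ± 372 against 1838 ± 481 CPM and the membrane protein Lamp1 at 1396 ± 216 against 1343 ± 204 CPM. Idua, the iduronidase, read 10.6, 10.1 and 9.73 CPM in cko 1, 2 and 3 and 6.86, 9.02 and 7.71 CPM in the controls (log2 fold change 0.36, SE 0.16, unadjusted p = 0.0562).

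Hmgb relatives and receptors were evenly split (5 above 0, 5 below, median log2 fold change -0.01). Hmgb3 was at 30.5 ± 5.82 against 24.3 ± 5.25 CPM (SD, n = 3 each). The receptor gene Tlr4 was at 3.01 ± 0.269 against 4.07 ± 0.431 CPM, without overlap (log2 fold change -0.43, SE 0.22, unadjusted p = 0.0798). The surface protein gene Cd24a was at 0.05 (SE 0.11) on the log2 scale. Senescence markers had 7 of 15 above 0 and a median log2 fold change of -0.002, with 5 further genes too rare to test. Igfbp3 was at -0.18 (SE 0.18) and the histone variant gene H2afy at 0.04 (SE 0.10).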

How the data were processed

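Kidney RNA-seq libraries, 3 labelled cko and 3 labelled control, were compared. The deposited table gives an estimated count per transcript and library, made by the authors with a counting program not given in the sources used here; 87.9% of gene sums were within 0.01 of a whole number. It also gives FPKM per transcript, as deposited. The submitters' processing notes name cutadapt 1.9.1, HISAT2 2.0.1, Cuffdiff 2.2.1 and GRCm38. Counts were summed per gene symbol and rounded, filtered with filterByExpr (minimum count 10), scaled by TMM and tested with edgeR 4.0.16 (quasi-likelihood, Benjamini-Hochberg over 15017 genes, threshold 0.05), under R 4.3.3. Transcripts (32803) were tested in the same way. The procedure was tested on simulated data with log2 changes of 1, 2 and 3 in either direction. Changes as small as the estimates for the 10 genes were not simulated. A count of 3 corresponds to 0.141 to 0.187 CPM. Alternatives used DESeq2 1.42.0, limma 3.58.1 on log2(FPKM + 1) and log2(FPKM + 0.1), other scaling factors, no filter, sums per Ensembl ID, a replicate block and leaving out each library. The genes and lists were chosen with earlier results of these data known. Besides the 10 genes, each list contributed its 2 most abundant genes and the 1 of lowest p, or its sole tested members where it had 3 or fewer. A gene that this rule names is not reported here. For each gene the most abundant transcript and the gene of highest correlation (mean CPM of at least 5) were named. Pairs of libraries within a group differed by more than counting noise.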

Additional observations from a re-analysis of the deposited data

How the results depend on the processing

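The count of members called was 0 under every alternative run, as was the count over the pathway lists. Over members' transcripts it was 0 with DESeq2, other scaling factors, no filter, the replicate block and each library left out, and the FPKM and Ensembl ID alternatives were not run for transcripts. The median log2 fold change of the members ran from -0.10 to 0.08 when each library was left out in turn. Over all genes, 2 calls became 14 with DESeq2, 1 with limma at either pseudocount, 5 with no filter, and 1 to 6 with a library left out. Replicate numbers were used as a replicate block although same-numbered libraries did not deviate together (correlations 0.08, -0.09 and 0.11). Under that block the count called stayed 0 for members and 2 for all genes, Lmnb1 moved to -0.01 and Foxo1-201 to -0.01 on the log2 scale. With limma on FPKM, at pseudocounts 0.1 and 1, the log2 fold change changed sign for Sirt3 (0.005 for both), Lmnb1 (-0.10 and -0.07), Hmgb1 (-0.13 and -0.12), Sdha (-0.05 for both) and Ywhae (-0.05 for both). The cause was not tested. Leaving out each library in turn, the log2 fold changes that changed sign ran from -0.24 to 0.16 for Sirt1, -0.07 to 0.01 for Sirt3, -0.10 to 0.14 for Foxo1, -0.35 to 0.14 for Foxo3, -0.12 to 0.20 for Lmnb1 and -0.04 to 0.25 for Hmgb1. Among related genes they ran from -0.10 to 0.04 for Sirt2, -0.06 to 0.13 for Sirt4, -0.14 to 0.17 for Nadk, -0.22 to 0.21 for Nampt, -0.03 to 0.06 for Sdha and -0.05 to 0.07 for Foxo4. The ranges were -0.32 to 0.01 for Syne2, -0.10 to 0.29 for Psap, -0.08 to 0.16 for Lamp1, -0.04 to 0.13 for Cd24a and -0.02 to 0.08 for H2afy. Among transcripts they were -0.08 to 0.16 for Foxo1-201, -0.32 to 0.16 for Foxo3-203, -0.35 to 0.11 for Lmna-201, -0.24 to 0.07 for Lmna-203 and -0.08 to 0.26 for Lmnb1-201. For Sirt1-201 the range was -0.41 to 0.06, for Sirt3-201 -0.15 to 0.23 and for Sirt3-202 -0.06 to 0.09. The fewest counts stood behind Lmnb1 (69 to 156) and Sirt6 (120 to 166).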
